A study of Homo sapiens with 8 samples.

Results

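The rows of chromosome 18 were followed across 8 populations of PC9, a human non-small cell lung cancer line that depends on a mutant epidermal growth factor receptor (EGFR). A row was taken as a member when its name matched exactly 1 gene symbol of the annotation (GENCODE release 44) and that gene lies on chromosome 18. This held for 349 rows of the 22664 that carry a gene name, 97 on the short arm and 252 on the long arm. The chromosome was selected on its median level in these same libraries, which earlier had set it apart in the subline DS8. Its levels in all 8 populations are therefore given as a description and not as a test.

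Each population was sequenced as 1 untreated bulk RNA library. PC9-VU and PC9-MGH are versions of the line from Vanderbilt University and from Massachusetts General Hospital, and PC9-BR1 was raised from PC9-VU by escalating doses of the EGFR inhibitor afatinib. DS3, DS6, DS7, DS8 and DS9 were each expanded from a single PC9-VU cell, so each subline is a clone by origin. The paper describes DS8 as apparently polyclonal, from the growth of its colonies under EGFR inhibition. The DS8 library is therefore not read as that of a uniform population. All 8 populations carry the exon 19 deletion of EGFR and a fluorescent nuclear label, and PC9-BR1 alone carries the second EGFR mutation T790M. The libraries hold between 2717355 and 3497722 counts in named rows. No population has a replicate, so no p-value is given, and the intervals of shares below cover counting error only.

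Cancer cell lines commonly gain or lose whole chromosomes or chromosome arms, and the descendants of single cells from one culture can differ in such changes. The messenger RNA of many genes rises or falls with the number of copies of the gene, so a change over a long run of neighbouring genes is a familiar reading of arm-level dosage in expression data, although regulation of single genes moves values as well. Chromosome 18 is comparatively poor in genes, and its arms are of unequal length, with most of its genes on the long arm. In a bulk library, more RNA per cell and a larger share of cells with that RNA cannot be told apart.

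Rows were treated as positions and not as genes, because the counts did not all match the places that the row names give. The exons of the named genes were moved along the chromosome in steps, and their overlap with annotated coding exons was compared with the counts of the rows. For the 97 short arm rows the match was highest with a move of 7000 bases (Spearman's rho 0.55 over rows) and nearly as high with none (0.50). For the first, middle and last 84 rows of the long arm it was highest with moves of 2.42, 2.46 and 2.25 Mb toward the short arm (rho 0.72, 0.62 and 0.61), against 0.00, 0.28 and 0.12 with no move. These correlations run over rows that share the same libraries and describe location only. Moves of this size do not cross the stretch of 6.09 Mb without a coding gene between the arms. They would, however, put the first long arm rows inside it. Positions are given here in Mb as the start of the named gene in hg38. On the long arm the counts thus matched best at places 2.25 to 2.46 Mb lower than those printed, and no row name is taken as the transcript counted.

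The long arm was thinly measured. Of its 252 rows, 163 had no count in any library, 55 averaged under 10 counts and 34 (13.5%) averaged 10 or more, the filter used for row values. Of the 97 short arm rows, 28 had no count, 23 averaged under 10 and 46 (47.4%) passed. On the other chromosomes 28.7% of rows passed. Among rows that passed, the median of the mean counts was 643.1 on the short arm and 38.9 on the long arm. A median over all chromosome 18 rows was therefore mostly a median of the short arm, and the arms are described apart.

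The share of a library's counts that fell on short arm rows was highest in DS8. It was 1.12% in PC9-VU, 1.53% in PC9-MGH, 1.07% in PC9-BR1, 1.03% in DS3, 1.06% in DS6, 1.04% in DS7, 2.27% in DS8 and 1.10% in DS9. These shares use all 97 rows, with no filter and no scaling factor, and the exact 95% binomial interval reached from 2.25% to 2.28% in DS8 and from 1.51% to 1.54% in PC9-MGH. DS8 therefore had the largest share and PC9-MGH the next, and the 6 remaining libraries lay close together. The short arm share of DS8 was 2.02 times that of PC9-VU (1.99 to 2.04), the population it was cloned from, 1.48 times that of PC9-MGH (1.47 to 1.5), and between 2.06 and 2.20 times those of the other sublines and PC9-BR1.

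The long arm share did not set DS8 apart in this way. It was 0.108% in PC9-VU, 0.146% in PC9-MGH, 0.102% in PC9-BR1, 0.130% in DS3, 0.117% in DS6, 0.108% in DS7, 0.105% in DS8 and 0.121% in DS9. DS8 had the second lowest of these values. Its ratio was 0.966 over PC9-VU (0.920 to 1.01), 1.03 over PC9-BR1 (0.977 to 1.08) and 0.963 over DS7 (0.916 to 1.01). The ratio was 0.803 over DS3 (0.766 to 0.841), 0.892 over DS6 (0.849 to 0.937), 0.862 over DS9 (0.822 to 0.904) and 0.716 over PC9-MGH (0.683 to 0.751). The 8 long arm shares lay closer together than the short arm shares, with PC9-MGH highest.

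**Figure D1:**
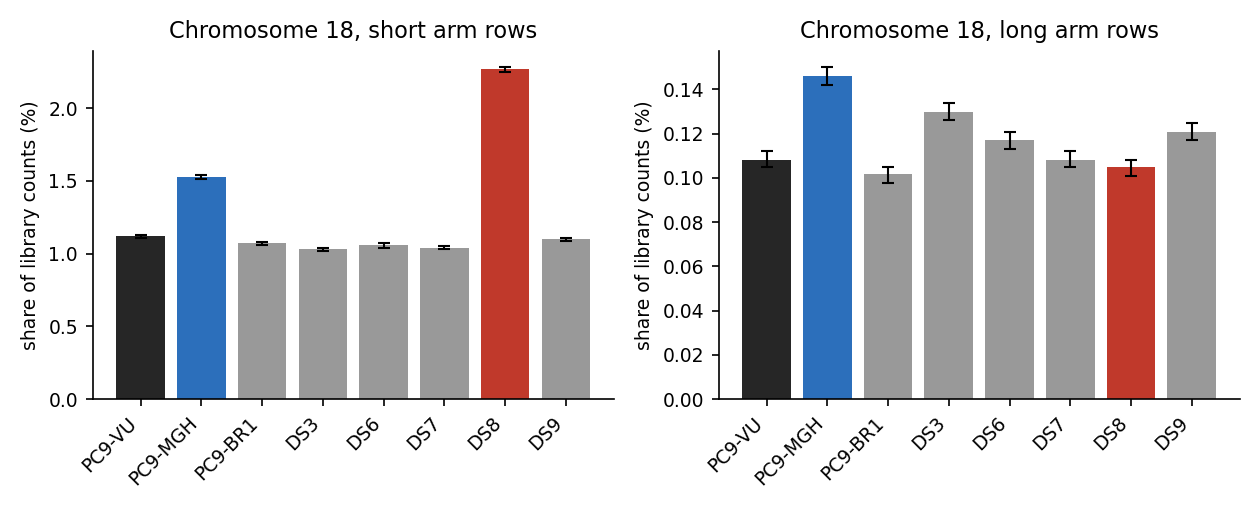
Share of each library's counts (percent, y axis) on the 97 short arm rows (left) and the 252 long arm rows (right) of chromosome 18, with exact 95% binomial intervals that cover counting error only. DS8 (red) stands at 2.27% on the short arm and at 0.105% on the long arm, while PC9-MGH (blue) is raised on both, at 1.53% and 0.146%.

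The same contrast between the arms was seen row by row. For each of the 80 rows that averaged 10 counts or more, log2 CPM (the count of a row relative to its library total, with TMM scaling and a prior count of 2) in a library was set against the median of the other 7 libraries. In DS8 the median log2 difference was 0.99 over the 46 short arm rows, a 1.98-fold level, with an interquartile range of 0.82 to 1.09. Over the 34 long arm rows it was 0.01, with an interquartile range of -0.30 to 0.29. The median over both arms together was 0.81, a value that neither arm shows by itself. Over the 6268 rows on other chromosomes the median of DS8 was 0.00, with an interquartile range of -0.28 to 0.28.

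Nearly every short arm row that passed was higher in DS8. Of the 46 rows, 45 lay above the median of the other 7 libraries, against 3124 of the 6268 rows on other chromosomes. In 43 of the 46, DS8 was at least 1.5-fold higher (11.1% of all 6456 rows tested were). No short arm row was at least 1.5-fold lower, against 11.3% of all rows. In 38 of the 46, DS8 lay above the highest of the other 7 libraries, against 16.2% of all rows. On the long arm, 6 of 34 rows were at least 1.5-fold higher in DS8 and 7 were at least 1.5-fold lower, 4 lay above the range of the other libraries and 8 below it (16.1% of all rows were below), so changes there went both ways. These counts follow from the choice of the chromosome and are read only as a picture of how evenly the rows moved.

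**Figure D2:**
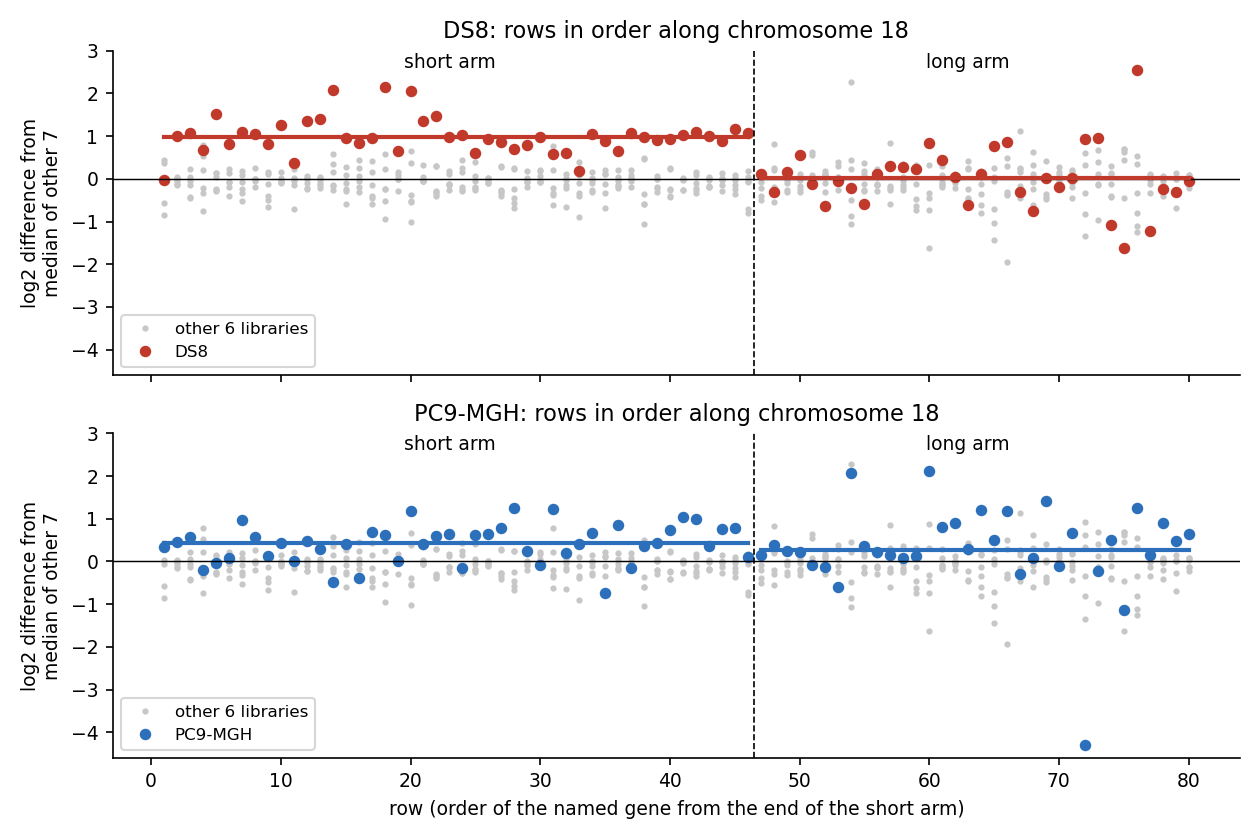
Log2 difference of each of the 80 rows from the median of the other 7 libraries (y axis), with rows in order from the end of the short arm (x axis), for DS8 (top) and PC9-MGH (bottom). Lines mark the arm medians, the dashed line the centromere and grey points the 6 libraries other than DS8 and PC9-MGH. The median of DS8 is 0.99 on the short arm and 0.01 on the long arm, and that of PC9-MGH is 0.43 and 0.28.

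The rows were then grouped in order into windows of 10, with 6 in the last short arm window and 14 in the last long arm window. All 5 short arm windows were raised in DS8, with medians of 1.04, 1.15, 0.96, 0.89 and 1.05 from the end of the chromosome to the centromere. All 3 long arm windows were near the other libraries, with medians of -0.09, 0.28 and -0.22. The change along DS8 thus fell between the last short arm window and the first long arm window, and the lowest short arm window, at 0.89, was above the highest long arm window, at 0.28.

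Summed over its rows, the first short arm window, named from 0.05 to 2.66 Mb, had 5160 CPM in DS8 and 3213 in PC9-MGH, against 2138 to 2475 in the other 6 libraries. The second, from 2.89 to 7.57 Mb, had 5913 CPM in DS8 and 3099 in PC9-MGH, against 2139 to 2376. The third, from 8.61 to 10.53 Mb, had 6634 CPM in DS8 and 5270 in PC9-MGH, against 3435 to 3682. In each of these windows DS8 was highest, PC9-MGH was next and the other 6 libraries were close to one another.

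The fourth window, from 11.69 to 12.66 Mb, had 2689 CPM in DS8 and 1984 in PC9-MGH, against 1311 to 1577 in the other 6. The fifth, from 12.79 to 14.06 Mb, had 2287 CPM in DS8 and 1952 in PC9-MGH, against 936 to 1134. The order of the libraries at the top was the same as in the windows before, with the smallest distance between DS8 and PC9-MGH in the window beside the centromere.

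On the long arm DS8 was not the highest library in any window. The first window, named from 23.20 to 26.85 Mb, had 277 CPM in DS8, against 406 in both PC9-MGH and DS3 and 246 to 266 in the other 5. The second, from 34.49 to 57.60 Mb, had 245 CPM in DS8, less than in PC9-MGH and more than the 193 to 228 of the other 6. The third, from 58.86 to 79.07 Mb, had 495 CPM in DS8, between the 472 of PC9-BR1 and the 564 of PC9-VU, and the highest value there, 685 CPM, was in DS9. The order of the libraries differed from one long arm window to the next.

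**Figure D3:**
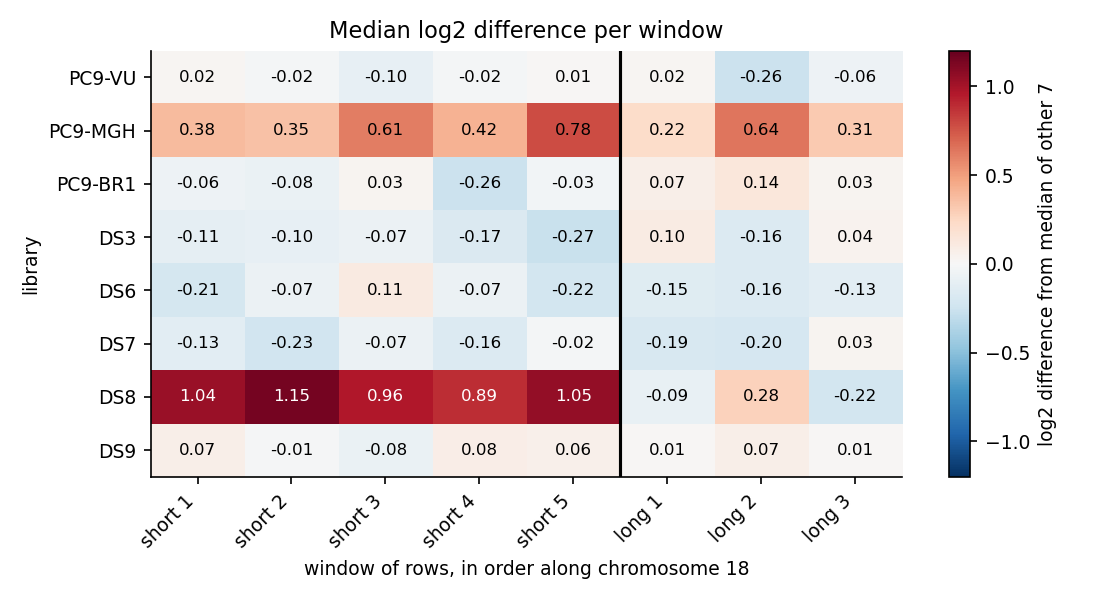
Median log2 difference per window of rows (columns, in order along chromosome 18, with a line at the centromere) in each library (rows), from the median of the other 7. DS8 runs from 0.89 to 1.15 in the short arm windows and from -0.22 to 0.28 in the long arm windows, and PC9-MGH is above 0 in all 8.

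By row names, the change of DS8 lay between the last short arm row that passed, at 14.06 Mb, and the first such long arm row, at 23.20 Mb. Counts of long arm rows matched best at lower places, so this span holds for names only. The annotation has no coding gene between 14.85 and 20.94 Mb, which is the longest such gap on the chromosome and holds the centromere. In DS8 the last 5 short arm rows differed from the other libraries by 1.10, 1.01, 0.88, 1.17 and 1.07 (log2). The first 5 long arm rows, with mean counts from 55.6 to 148.4, differed by 0.11, -0.30, 0.16, 0.55 and -0.12. The lowest of the first set was above the highest of the second. In PC9-VU these 10 rows lay between -0.55 and 0.04.

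The height of the short arm in DS8 was not that of a few strong rows. In the 16 rows with the lowest mean counts, the next 15 and the highest 15, the median log2 difference was 0.94, 1.02 and 0.98, while rows of the same levels on other chromosomes had medians of 0.01, -0.01 and -0.01. The 5 rows named for long noncoding RNAs had a median of 0.95, and the 41 named for coding genes 0.99. In 29 of the 46 rows the difference lay within 0.3 of the arm median. The like share elsewhere was not computed, but the interquartile range of DS8 on other chromosomes was -0.28 to 0.28. The count is therefore not read as a result. The 23 short arm rows that failed the filter held 59 counts in DS8 and 32 in PC9-VU, a ratio of shares of 2.26 with an interval of 1.45 to 3.60. With the filter applied to the libraries other than DS8, 46 short arm rows passed as well. The same low rows held 67 counts in PC9-MGH.

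The short arm was not flat in DS8. Values reached 2.07, 2.16 and 2.06 in rows named at 3.35, 5.24 and 7.57 Mb, with mean counts of 29.1, 72.2 and 673.6, all in the second window. Only 3 rows were under 1.5-fold. They were named at 0.05, 2.89 and 11.88 Mb, had mean counts of 15.2, 276.0 and 97.1, and differed by -0.03, 0.36 and 0.18. The rows just past 1.5-fold stood at 0.59 and 0.60, at 11.69 and 11.85 Mb. The 3 highest rows thus lay in a single window and the 3 lowest in different ones, and from the third window on no row was above 1.48.

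**Figure D4:**
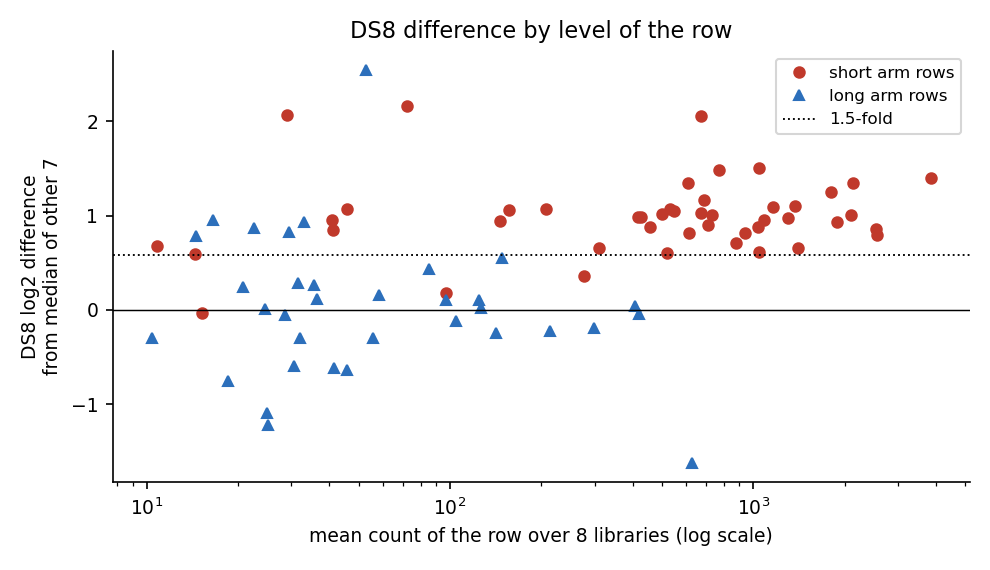
Log2 difference of DS8 from the median of the other 7 libraries (y axis) against the mean count of the row over 8 libraries (x axis, log scale), for 46 short arm rows (red circles) and 34 long arm rows (blue triangles), with 1.5-fold dotted. Short arm rows stay near 1 at all levels, with medians of 0.94, 1.02 and 0.98 from the lowest to the highest level, and long arm rows scatter around 0.

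Windows of the other 22 chromosomes (the other autosomes and X) gave the range against which these values can be read. In DS8, 90% of the 626 windows elsewhere lay between -0.43 and 0.48, and 1 of them, on chromosome 9, reached the lowest short arm window, at 1.42. Chromosome medians of DS8 elsewhere ran from -0.45 on chromosome 13 to 0.35 on chromosome 15, against 0.81 for chromosome 18 as a whole. Chromosome 18 was selected on such a median in DS8, so its place above these values is no test. The long arm windows of DS8 lay within the middle 90%. Whether rows of other chromosomes are displaced from their names was not tested here.

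**Figure D5:**
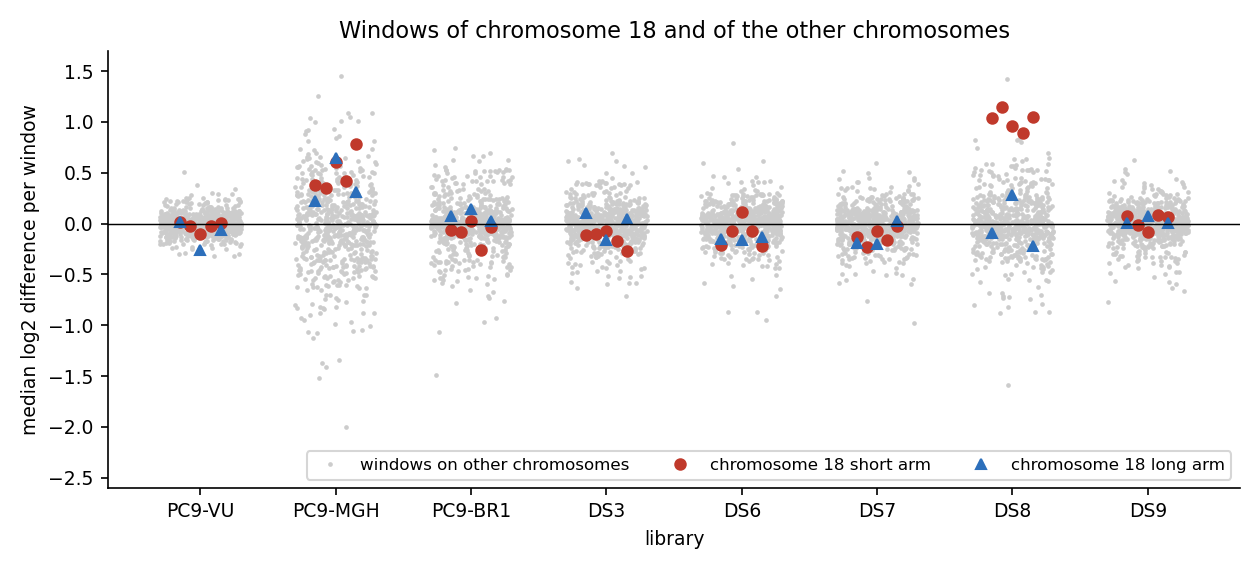
Median log2 difference per window (y axis) in each library (x axis), for the 5 short arm windows (red circles) and 3 long arm windows (blue triangles) of chromosome 18 and for 626 windows on other chromosomes (grey). The short arm windows of DS8, from 0.89 to 1.15, lie above all but 1 of the grey points of that library, and the chromosome 18 windows of PC9-MGH, from 0.22 to 0.78, lie in the upper part of a wide cloud.

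PC9-MGH was the other library in which chromosome 18 was raised, by less and on both arms. Its median log2 difference was 0.43 over the short arm rows, a 1.35-fold level, and 0.28 over the long arm rows, a 1.21-fold level. All 8 windows were above 0, from 0.22 in the first long arm window to 0.78 in the last short arm window. Against PC9-VU alone the arm medians were 0.48 and 0.49. Without a filter, however, the long arm median was 0.00 over 89 rows, 55 of which averaged under 10 counts.

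Rows of PC9-MGH were scattered most widely, with an SD over rows of 0.45 on the short arm and 1.06 on the long arm, against 0.42 and 0.75 in DS8. Over rows on other chromosomes the SD was 0.61 in DS8 and 0.96 in PC9-MGH, so the wide scatter of PC9-MGH was not particular to chromosome 18. Of the short arm rows, 18 of 46 were at least 1.5-fold higher, against 15.4% of all rows, and 1 was at least 1.5-fold lower, against 19.9%. Of the long arm rows, 11 of 34 were higher and 3 lower. The 18 short arm rows were all at least 1.5-fold higher in DS8 as well, where 43 of 46 were. Both comparisons share 6 reference libraries. PC9-MGH lay above the other 7 libraries in 6 of 46 short arm rows and 13 of 34 long arm rows, against 23.9% of all rows, and below them in 4 and 2 rows, against 25.6%. On the short arm DS8 was highest in 38 of the 46 rows. Few were thus left in which PC9-MGH could be highest, so 23.9% is no like background there. DS8 exceeded PC9-MGH in 39 of the 46 short arm rows but in 9 of the 34 long arm rows. On other chromosomes it did so in 3195 of 6268 rows.

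Windows of PC9-MGH on other chromosomes spread widely, up to 1.45. Of these, 90% lay between -0.70 and 0.60, a range that 3 of its chromosome 18 windows exceeded, at 0.61 and 0.78 on the short arm and 0.64 on the long arm. Of the 626 windows elsewhere, 92 (14.70%) reached its lowest short arm window. Its medians of whole chromosomes elsewhere ran from -0.43 on chromosome 20 to 0.26 on chromosome 22. The short arm of chromosome 18 stood at 0.43 and its long arm at 0.28. No rank is read from these, because an arm is set beside whole chromosomes and the long arm value moved with the filter. The chromosome was chosen from medians in these libraries, so neither the windows nor the row counts of PC9-MGH are a test. Set against PC9-MGH directly, DS8 was higher by a median of 0.55 on the short arm, and on the long arm its median difference was -0.42. With 1 library each, growth and preparation of the cells cannot be told apart from a difference between the populations.

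The remaining 6 libraries had short arm medians between -0.16 and 0.02. These were -0.16 in DS3, -0.12 in DS6, -0.12 in DS7, -0.06 in PC9-BR1, -0.01 in PC9-VU and 0.02 in DS9. Over rows on other chromosomes the medians of these libraries lay between 0.00 and 0.01. On the short arm, however, the reference of each includes DS8 and PC9-MGH, both raised there. With DS8 left out of the reference, an alternative chosen after seeing the data, the short arm medians were -0.13 in DS3, -0.07 in DS6 and -0.06 in DS7. They were -0.05 in PC9-BR1, 0.03 in PC9-VU and 0.05 in DS9. Against PC9-VU alone, the short arm medians were -0.15 in DS3, -0.12 in DS6, -0.09 in DS7, -0.06 in PC9-BR1 and 0.05 in DS9. Neighbours in this order differed by less than the interquartile range of the rows in any of these libraries.

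DS3 had the lowest short arm median of the 8 libraries, but without rows within 3 Mb of the centromeric gap the lowest was that of DS7, at -0.18. Of the 46 rows in DS3, 36 were at or below the median of the others. On other chromosomes 50.2% of rows were above it, but DS8 and PC9-MGH, raised on this arm, are in the reference. Of the same 46 rows, 13 were below the range of the other 7 libraries (11.6% of all rows were). At least 1.5-fold lower were 5 (7.31% of all rows). DS8 was lowest in none of these rows, which leaves more of them to the other libraries, so 11.6% is no like background here. The short arm windows of DS3 were all below 0, at -0.11, -0.10, -0.07, -0.17 and -0.27 toward the centromere, and 575 of 626 windows elsewhere (91.85%) were at or above that lowest window. Its long arm median was 0.01.

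PC9-BR1, which was derived from PC9-VU, differed little from it on the short arm. Against PC9-VU alone its short arm median was -0.06, and its short arm windows ran from -0.17 to -0.03. Against the other 7 libraries the lowest short arm window of PC9-BR1 was the fourth, at -0.26, and the other 4 lay between -0.08 and 0.03. In 11 of 46 short arm rows it was below the range of the other 7 libraries, against 12.2% of all rows. In none was it above, against 12%, but DS8 was above the other 7 in 38 of these 46 rows. Few rows were thus left in which PC9-BR1 could be highest. The shares over all rows are therefore no like background on this arm. On the long arm the median of PC9-BR1 was 0.06, and -0.25 when CPM were summed over rows, so that no direction can be given.

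The long arm windows of DS6 lay between -0.16 and -0.13, but with CPM summed over rows its long arm stood at 0.08, so that no direction can be given. Of the long arm windows, 2 of 3 were below 0 in DS7, at -0.19 and -0.20, and 2 of 3 in PC9-VU, at -0.26 and -0.06. The highest window was 0.11 in DS6, the third of the short arm, and 0.03 in DS7, the last of the long arm. In DS9 every window lay between -0.08 and 0.08, the narrowest range of the 8 libraries. In PC9-VU the lowest window was the second of the long arm, at -0.26, and the highest was 0.02. All of these values lay within the middle 90% of the windows elsewhere in their library, except that of PC9-VU, whose middle 90% ran from -0.17 to 0.19.

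The long arm also held single rows that departed far from the other libraries. The 4 with the largest departures, singled out after their values were seen, averaged between 29.4 and 213.1 counts. The row named at 61.81 Mb had a log2 difference of -4.30 in PC9-MGH. The row named at 69.40 Mb had 2.54 in DS8, and the row named at 26.23 Mb had 2.27 in DS3 and 2.08 in PC9-MGH. The row named at 48.92 Mb had 2.12 in PC9-MGH. The long arm row with the most counts, named at 65.75 Mb with a mean of 625.6, stood at -1.62 in DS8, -1.63 in PC9-BR1 and -1.14 in PC9-MGH, and its weight enters the summed CPM of the last window. On the short arm of DS8, by contrast, 45 of 46 rows departed upward, against 49.8% of rows on other chromosomes.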

How the data were processed

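Counts per row were deposited by the authors without normalization. Their notes name STAR (version 2.5.2b), hg38 and featureCounts (version 1.6.4) for paired-end reads, with the annotation of the single-cell data. Strandedness is not given in the sources used here. Of 30988 rows, 8324 carry no symbol, with 4.23% to 4.41% of counts, and 450 named rows matched no gene or several. Both were left out as members. Because row names do not identify the transcript counted, no gene is interpreted and no cell type marker was checked.

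edgeR (version 4.0.16, in R version 4.3.3) gave log2 CPM for the 6456 named rows that averaged 10 counts or more, and DESeq2 (version 1.42.0) size factors were an alternative. Arms were split at the longest stretch without a coding gene. Windows are named by the first and last gene start. Window values are given in full for DS8 and by range for other libraries. Shares have exact 95% binomial (Clopper-Pearson) intervals, and ratios of shares exact conditional intervals. Exons were moved in steps of 1000 bases up to 3 Mb either way. These computations were tested on simulated data. No test between populations was made, as each has 1 library. The chromosome, the arms and the windows were chosen with earlier results of these data known.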

Additional observations from a re-analysis of the deposited data

How the results depend on the processing

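Each population has 1 library, so no replicate could be left out. No paired analysis was possible because a single library stands for each population and nothing pairs them. A median counts as moved when it leaves the exact 95% binomial interval of the main median over rows. The short arm median of DS8 ran from 0.93 to 1.09 over 11 alternatives and its long arm median from -0.17 to 0.05. Its lowest short arm window ran from 0.63 (windows of 6 rows) to 0.95. TMM factors without chromosome 18, DESeq2 size factors, a prior count of 0.5, thinning and a filter on the other 7 libraries moved no median over the chromosome or an arm.

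Without a filter, over 158 rows of which 78 averaged under 10 counts, the chromosome 18 median was 0.28 in DS8, 0.17 in PC9-MGH and 0.00 in DS3, DS6 and DS7, and the long arm median of PC9-MGH was 0.00. Low counts limit these values. With summed CPM the chromosome value was 1.01 in DS8, 0.04 in PC9-VU and -0.04 in DS6 and DS7. The short arm value was then 1.09 in DS8, 0.05 in PC9-VU and -0.03 in DS7, and the long arm value -0.25 in PC9-BR1 and 0.08 in DS6. Against PC9-VU alone the long arm median of PC9-BR1 was 0.14. With DS8 left out of the reference, an alternative chosen after seeing the data, the short arm median of PC9-VU was 0.03. The cause was not tested.

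The share of chromosome 18 without the 5 rows with the most counts was 0.860% in PC9-VU, 1.19% in PC9-MGH, 0.821% in PC9-BR1, 0.787% in DS3, 0.814% in DS6, 0.794% in DS7, 1.58% in DS8 and 0.849% in DS9. With rows that carry no symbol in the total it was 1.18%, 1.6%, 1.12%, 1.11%, 1.12%, 1.10%, 2.27% and 1.17% in the same order. Both move by construction.

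Counts of rows fall with a higher fold or filter by construction. The share over all rows was not computed at these settings, so the counts below have no background beside them. At 2-fold, DS8 had 21 short arm rows higher, and on the long arm 1 higher and 3 lower. PC9-MGH had 5 short arm rows higher and 0 lower, and 6 long arm rows higher. A mean of at least 50 counts left 39 short arm rows and 15 long arm rows. With that filter, 1 long arm row was at least 1.5-fold higher and 1 lower in DS8, and 2 were above and 2 below the range of the other 7 libraries. In PC9-MGH with that filter, 3 short arm rows were above and 2 below that range, and on the long arm 7 rows were at least 1.5-fold higher and 1 lower, with 6 above the range and 0 below it.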
